A study of Mus musculus with 16 samples.

Results

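A set of 1264 genomic regions carried an H3K27ac peak in macrophages stimulated with interferon gamma (IFNγ), kept a peak when IFNγ was given together with the PARP inhibitor PJ34, and had no peak in untreated cells or in cells given PJ34 without IFNγ. The regions were chosen by the peak calls themselves. Peaks of the 4 deposited lists were merged wherever they overlapped by at least 1 bp, which gave 55218 regions, and those with peaks from the IFNγ 1 h and IFNγ 1 h+PJ34 lists alone were kept. They made up 2.29% of all merged regions, and this share is the count that the rule fixes and is read as nothing more. They are called kept regions below.

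The cells were primary bone marrow-derived macrophages (BMDMs) from C57Bl6 mice 8 to 12 weeks old, differentiated in DMEM with 20% FBS and LCCM. Control cells were left untreated, IFNγ 1 h cells received 100 ng/mL IFNγ for 1 h, PJ34 cells received 20 µM PJ34, and IFNγ 1 h+PJ34 cells received 20 µM PJ34 starting 1 h before 100 ng/mL IFNγ for 1 h. For how long the PJ34 cells were exposed is not given in the labels. ChIP-seq for H3K27ac covered 8 samples, 2 for each condition, with 8 matched input DNA samples, and the authors made 1 peak list for each condition from both replicates. No replicate error can therefore be set beside any value, and no p-value is given. Intervals are 95% intervals that cover counting error only and treat regions as independent, although neighbouring regions are not. The lists held 43533 peaks in Control, 40708 in IFNγ 1 h, 44090 in PJ34 and 42960 in IFNγ 1 h+PJ34, and they give no read counts, so the sequencing depth is unknown. A peak was found at the start site of 8 of 8 macrophage marker genes and of 0 of 6 T cell marker genes in each of the 4 lists. In every list 1 of 4 B cell, 1 of 3 erythroid and 1 of 2 dendritic cell markers had a peak. Of the fibroblast markers 0 or 1 of 4 had a peak, depending on the list, and of the neutrophil markers 0 or 1 of 5.

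Acetylation of histone H3 at lysine 27 marks nucleosomes beside active promoters and enhancers. IFNγ signals through its receptor and the JAK kinases, and the palindromic DNA element of this pathway, the gamma-activated site (GAS), lies at enhancers and promoters of genes for pathogen defence and antigen presentation. PARP enzymes attach ADP-ribose to proteins, and PJ34 blocks this activity.

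Sequences are shown first for the highest-ranked kept regions that hold a match to the GAS letters TTCNNNGAA, since this element was denser in them than in the classes they are compared with below. Each window gives 60 bases either side of 1 match, on the plus strand of mm10 (sequence from RefSeq GRCm38.p6), with the match in capitals. No printed window overlaps an annotated UTR.
Rapgef6, intron, left of the gap, chr11:54682513-54682641: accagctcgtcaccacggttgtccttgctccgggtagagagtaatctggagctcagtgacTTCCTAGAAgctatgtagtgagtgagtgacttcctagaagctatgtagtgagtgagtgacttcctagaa
Rapgef6, intron, right of the gap, chr11:54683293-54683421: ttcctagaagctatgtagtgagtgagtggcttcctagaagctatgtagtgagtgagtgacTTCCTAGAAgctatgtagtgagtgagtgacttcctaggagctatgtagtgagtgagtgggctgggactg
Ranbp2, intron, chr10:58463117-58463245: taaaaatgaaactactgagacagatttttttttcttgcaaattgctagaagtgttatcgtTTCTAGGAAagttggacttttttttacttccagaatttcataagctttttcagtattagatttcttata
Tnfrsf1a, intergenic, chr6:125345496-125345624: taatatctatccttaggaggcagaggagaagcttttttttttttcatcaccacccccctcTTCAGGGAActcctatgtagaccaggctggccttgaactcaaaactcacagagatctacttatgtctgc
Stam, intron, chr2:14107936-14108064: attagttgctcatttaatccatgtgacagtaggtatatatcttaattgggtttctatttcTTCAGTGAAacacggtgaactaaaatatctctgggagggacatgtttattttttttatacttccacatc
Vps53, intron (also of Glod4), chr11:76131210-76131338: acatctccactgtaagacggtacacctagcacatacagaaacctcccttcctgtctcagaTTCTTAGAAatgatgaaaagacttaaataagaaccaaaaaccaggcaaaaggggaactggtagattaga
Gbp4, intergenic, chr5:105145865-105145993: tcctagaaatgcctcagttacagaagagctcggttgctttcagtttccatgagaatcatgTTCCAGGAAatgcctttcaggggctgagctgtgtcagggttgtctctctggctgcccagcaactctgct
Gnaq, intron, chr19:16200028-16200156: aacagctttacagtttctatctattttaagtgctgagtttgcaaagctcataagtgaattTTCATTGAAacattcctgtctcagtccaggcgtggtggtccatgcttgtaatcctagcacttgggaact
Cxcr4, intergenic, chr1:128548798-128548926: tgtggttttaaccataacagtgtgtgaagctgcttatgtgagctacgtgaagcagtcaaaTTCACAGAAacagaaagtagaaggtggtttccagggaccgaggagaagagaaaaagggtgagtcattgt
Akap7, intergenic, chr10:25321374-25321502: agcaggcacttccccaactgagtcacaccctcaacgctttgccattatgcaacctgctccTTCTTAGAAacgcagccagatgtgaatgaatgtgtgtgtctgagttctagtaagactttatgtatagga

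The Gbp4 window alone among these 10 holds the stricter palindrome TTCCNGGAA. A further 3 kept regions beside IFNγ response genes held this stricter form and are shown because of it, a choice made after their sequences were seen.
Tgtp1, intron of Olfr56, chr11:48994198-48994326: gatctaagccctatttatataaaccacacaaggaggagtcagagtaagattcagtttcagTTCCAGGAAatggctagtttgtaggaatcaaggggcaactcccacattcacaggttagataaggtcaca
Socs1, intergenic, chr16:10814824-10814952: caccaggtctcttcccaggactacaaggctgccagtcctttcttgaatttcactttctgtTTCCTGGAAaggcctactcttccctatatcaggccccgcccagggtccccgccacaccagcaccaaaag
Igtp and Irgm2, intergenic, chr11:58193605-58193733: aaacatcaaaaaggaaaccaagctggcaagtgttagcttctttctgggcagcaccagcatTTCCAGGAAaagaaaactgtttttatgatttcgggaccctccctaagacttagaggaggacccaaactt

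The 2 Rapgef6 windows come from the 2 highest-ranked kept regions and lie at the facing edges of both. Rapgef6 encodes an exchange factor for Rap GTPases. Each window holds 3 GAS matches, of which 1 is in capitals and the others are left in lower case. The 675 bp between the 2 regions, chr11:54682598-54683272, hold 21 GAS matches, all with the letters TTCCTAGAA, and 19 of the steps from a match to the next were 30 bp long. The lower-case matches of the left window belong to these 21. Over these 675 bp the tandem array amounts to 31.1 matches per kb, against 0.623 per kb across the kept regions. No peak was called over these 675 bp in any list. The array ran on into both called regions. The left region held 1 GAS match and the right region 3, and all of them have the same letters TTCCTAGAA. The authors kept uniquely mapped reads, and how well reads map within the array was not tested.

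Over the full length of the kept regions, 498 of 1264 (39.4%, 36.7 to 42.2%) held a GAS match, against 29.0% of all merged regions, and 114 (9.02%, 7.50 to 10.7%) held the strict form, against 4.50% of all merged regions. Regions of different width cannot be compared by such shares, so densities were compared next. Densities do not fully remove width, since GAS density also varied with the position in a region, as read below. Both strands were searched, and a palindromic match counted once. The 3 comparison classes were the 2250 regions with a peak in IFNγ 1 h alone, which lost their peak under PJ34, the 1491 regions with peaks in IFNγ 1 h and PJ34 only, and the 2231 regions with peaks in Control and PJ34 only. GAS matches were 1.65 times as dense in the kept regions as in the IFNγ alone class (1.44 to 1.88), 1.65 times as dense as in the IFNγ and PJ34 class (1.44 to 1.88) and 2.25 times as dense as in the Control and PJ34 class (1.98 to 2.55). The strict form was 3.59 times as dense as in the IFNγ alone class (2.36 to 5.66), with 3.16 (2.14 to 4.79) and 6.37 (4.15 to 10.1) for the other classes. Control letters, which hold the same bases in another order (GAANNNTTC and CCTTNAAGG), gave ratios from 0.82 to 1.14, and each of these 6 intervals included 1. The kept regions also ranked higher by peak strength. Their median highest percentile in any list, a rank explained below, was 51.3, against 17.7, 34.2 and 35.2 in the classes. With only the stronger 50% of peaks of each list, the GAS ratio against the IFNγ alone class was 1.21 (1.05 to 1.40). For the other classes it was 1.61 and 2.37. The strict ratio against the IFNγ alone class was then 1.37 (0.93 to 2.06). Among regions whose highest percentile was 25 to 75, the GAS and strict ratios against this class were 1.91 (1.56 to 2.36) and 3.55 (1.90 to 7.35).

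The matches did not sit at the summits, the points of highest signal within a peak. Around the summit of the kept regions the GAS density formed 2 maxima, at 200 to 300 bp on the left (1.46 per kb, 184 matches) and at 200 to 300 bp on the right (1.20 per kb, 152 matches), with a trough of 0.40 and 0.39 per kb in the 100 bp to the left and to the right of the summit. The window from 200 to 400 bp on both sides was chosen after this profile had been seen. In that window the kept regions held 577 GAS matches (1.14 per kb), which was 2.91 times the density within 100 bp of the summit (2.35 to 3.64) and 2.94 times the density at 500 to 1000 bp (2.61 to 3.33). The strict form was 5.83 times as dense there as within 100 bp of the summit (3.24 to 11.6) and 6.60 times as dense as at 500 to 1000 bp (4.78 to 9.24). The profile was also read from the summits of each list, over the same regions and the same sequence. The 2 summits of a region lay a median of 62 bp apart, so these readings are not independent. With summits of the IFNγ 1 h peaks the GAS density beside the summit was 2.30 times that within 100 bp (1.87 to 2.83), and with summits of the IFNγ 1 h+PJ34 peaks it was 2.66 times (2.16 to 3.31). The control letters of GAS showed no such profile (1.04 times, 0.77 to 1.40). The profile was not particular to GAS. In the kept regions AGGAAGT and TGANTCA, read below, were 3.29 (2.48 to 4.43) and 2.15 times (1.68 to 2.79) as dense there as within 100 bp. The control letters AAGNNAAAG of a further element gave 1.63 times (1.27 to 2.11). In the 3 comparison classes, in the order above, AGGAAGT gave 1.69, 1.53 and 2.20 times and TGANTCA 2.29, 3.03 and 2.18 times.

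**Figure D1:**
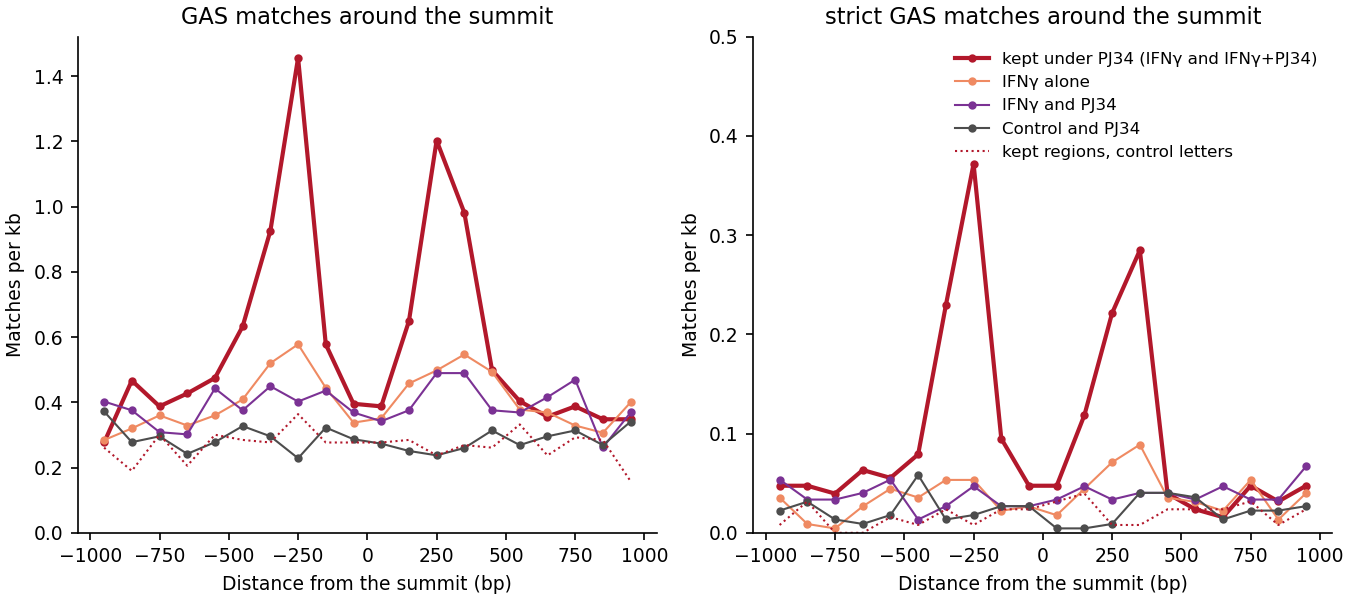
Density of GAS matches (left) and strict GAS matches (right), in matches per kb, by distance from the region summit in bp, in bins of 100 bp, for the 1264 kept regions and the 3 comparison classes, with the control letters in the kept regions as a dotted line. The kept regions reach 1.46 GAS matches per kb at 200 to 300 bp from the summit and fall to 0.39 per kb beside the summit, while the Control and PJ34 class shows no maximum.

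The same window was compared between classes, over an equal number of bases for each region. With median widths of 695.5 bp in the kept regions and 326 bp in the IFNγ alone class, it lay outside the called peak more often in the latter. GAS matches 200 to 400 bp from the summit were 2.13 times as dense in the kept regions as in the IFNγ alone class (1.88 to 2.41), 2.49 times as dense as in the IFNγ and PJ34 class (2.16 to 2.89) and 4.47 times as dense as in the Control and PJ34 class (3.83 to 5.23). The strict form was denser by a factor of 4.15 (3.05 to 5.72), 7.51 (4.77 to 12.4) and 13.7 (8.38 to 23.8) against the classes in the same order. With only the stronger 50% of peaks the first 2 of these were 1.98 (1.30 to 3.10) and 4.09 (2.25 to 8.06). The IFNγ alone class had a weaker maximum of its own, with a GAS density beside the summit 1.55 times that within 100 bp (1.29 to 1.88). In the IFNγ and PJ34 class it was 1.29 times (1.03 to 1.63), and the Control and PJ34 class had none (0.91, 0.73 to 1.14). For the strict form the IFNγ alone class gave 3.00 times (1.52 to 6.57), against 5.83 (3.24 to 11.6) in the kept regions, and these intervals overlap. The other classes gave 1.22 (0.54 to 3.02) and 1.29 times (0.51 to 3.64).

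Other elements were read in the same window. AGGAAGT, the core of the element bound by PU.1 and related ETS factors of the macrophage lineage, was 1.83 times as dense as in the IFNγ alone class (1.58 to 2.12) and 1.54 times as dense as in the IFNγ and PJ34 class (1.31 to 1.80), but 1.19 times as dense as in the Control and PJ34 class (1.04 to 1.36). Over whole regions its ratios were 1.21 (1.02 to 1.42), 1.16 (0.99 to 1.36) and 0.96 (0.84 to 1.10), so that the interval included 1 for the last 2 classes. TGANTCA, the element of the AP-1 factors, was less dense in the kept regions than in the IFNγ alone class (0.77, 0.68 to 0.88) and the IFNγ and PJ34 class (0.54, 0.47 to 0.61) and had a ratio of 1.02 to the Control and PJ34 class (0.89 to 1.17). Over whole regions the AP-1 ratio to the IFNγ alone class was 0.93 (0.80 to 1.07) and that to the IFNγ and PJ34 class 0.69 (0.60 to 0.78). GGANTTTCC, an element of the NF-kB factors with 28 matches in this window of the kept regions, had ratios of 0.68 (0.43 to 1.07), 0.29 (0.19 to 0.45) and 0.53 (0.34 to 0.82). Over whole regions they were 2.23 (1.26 to 4.12), 0.89 (0.58 to 1.35) and 0.91 (0.62 to 1.33), and no direction is given for this element. GAAANNGAA, the interferon-stimulated response element (ISRE) bound by IRF factors, was 1.66 (1.44 to 1.92), 1.41 (1.21 to 1.64) and 1.99 times as dense (1.71 to 2.31), yet its control letters AAGNNAAAG also gave 1.19 (1.01 to 1.39) against the IFNγ alone class and 1.36 (1.15 to 1.60) against the Control and PJ34 class. Over whole regions the ISRE ratios were 1.25 (1.09 to 1.44), 1.33 (1.16 to 1.53) and 1.30 (1.16 to 1.47). The control letters gave 1.00, 0.90 and 0.93 over whole regions, with intervals that included 1. ISRE matches were found in 393 kept regions (31.1%) and in 31.3% of all merged regions, a share that also depends on width. Of the 693 GAS matches within kept regions 29 overlapped an ISRE match, 205 regions held both elements and 578 held neither. The 6 elements and 3 classes gave 18 ratios over whole regions and 18 in this window, and the intervals are not adjusted for their number.

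**Figure D2:**
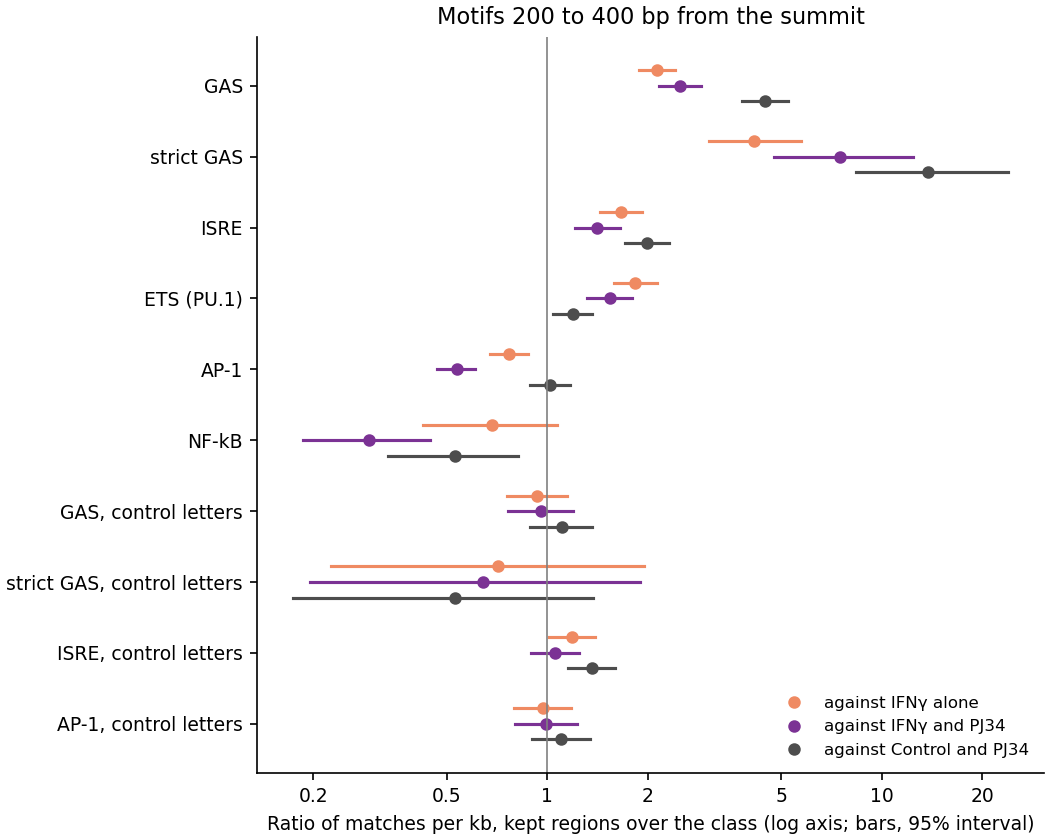
Ratio of matches per kb in the kept regions over each comparison class, 200 to 400 bp from the region summit, on a log axis, with 95% intervals as bars, for the 6 elements and the control letters of 4 of them. GAS and strict GAS lie above 1 against all 3 classes, from 2.13 to 13.7, and AP-1 lies below 1 against the IFNγ alone and the IFNγ and PJ34 classes.

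The kept regions lay away from promoters. Only 47 (3.72%, 2.74 to 4.91%) had their summit within 1 kb of a protein-coding start site, while 626 (49.5%) lay in introns, 559 (44.2%) between genes and 32 (2.53%) in exons. The promoter share differed by −5.74 points from that of the Control and PJ34 class (−7.31 to −4.09) and by −1.92 points from that of the IFNγ and PJ34 class (−3.49 to −0.32). Against the IFNγ alone class it was 1.23 points higher (0.06 to 2.55), and in 8 of the 9 other settings tried the interval included 0. The median GC content was 43.5%, against 43.4%, 44.0% and 46.4% in the 3 classes. Among regions found in all 4 lists, 46.1% were promoters.

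Distances to constant regions, those with a peak in all 4 lists, were long. A constant region lay within 10 kb of 571 kept regions (45.2%, 42.4 to 48.0%), with a median distance of 12.4 kb over the kept regions. This share differed by −17.2 points from that of the Control and PJ34 class (−20.6 to −13.8). Against the IFNγ and PJ34 class the difference was −9.76 points (−13.5 to −6.01), and with only the stronger 50% of peaks it was −1.41 points (−6.51 to 3.65). Against the IFNγ alone class it was −5.23 points (−8.64 to −1.78), and it changed sign, with an interval that included 0, in 2 of 7 other settings. A Control or PJ34 peak lay within 200 bp of 111 kept regions (8.78%), within 1 kb of 301 (23.8%) and within 5 kb of 611 (48.3%). A part of the set thus stood near acetylation called without IFNγ. This distance is not given for the comparison classes.

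Kept regions were wider than those of the comparison classes, with a median of 695.5 bp (quartiles 521 and 1052) against 326, 527 and 556 bp. Their rank in each list was expressed as a percentile of −log10 p, from 0 for the weakest peak to 100 for the strongest. These values come from the peak calls that chose the regions and are given as a description, with no test. The median percentile was 36.5 in the IFNγ 1 h list and 47.0 in the IFNγ 1 h+PJ34 list, and the median fold enrichment over background was 4.38 and 5.91. The percentile was higher with PJ34 in 865 regions and lower in 399, with a median difference of 9.23 points, while over all 24317 regions with a peak in both IFNγ lists the median difference was 0.28 points and 51.3% were higher with PJ34. Grouped by the mean of both percentiles, the median difference was 1.30 points over the 234 kept regions at 0 to 25, 9.91 over 637 at 25 to 50, 12.0 over 370 at 50 to 75 and 9.73 over 23 above 75, against −0.40, 2.22, 1.71 and −0.10 over all shared regions of the same ranges. Grouped by the IFNγ 1 h percentile instead, it was 31.6 points at 0 to 10, 17.4 at 10 to 25 and 7.04 at 25 to 50. Over all shared regions of these ranges it was 29.6, 19.7 and 7.29, so there it was not particular to the kept regions. At 50 to 75 and above 75 it was 2.42 and 4.16 points in the kept regions, against −0.38 and −1.46. The depth of each list is unknown, and its part in these differences was not tested.

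Whether an IFNγ peak without a Control or PJ34 peak was kept went with its rank, which is part of the rule. Of 3514 such regions 1264 were kept (36.0%). At an IFNγ percentile of up to 10, 99 of 752 were kept (13.2%), at 10 to 25, 276 of 1140 (24.2%), at 25 to 50, 555 of 1202 (46.2%), at 50 to 75, 322 of 408 (78.9%), and above 75 all 12. At the edge of the rule, the 20 weakest kept regions had a lower −log10 p of 2.12 to 3.15, and 7 regions with peaks in both IFNγ lists were left out through a Control or PJ34 peak whose −log10 p was 2.40 to 2.98. GAS density over whole regions was 0.48 per kb in the lowest of 4 equal groups of kept regions by rank (0.39 to 0.59), 0.59 and 0.66 in the groups above it, and 0.69 in the highest (0.61 to 0.77).

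**Figure D3:**
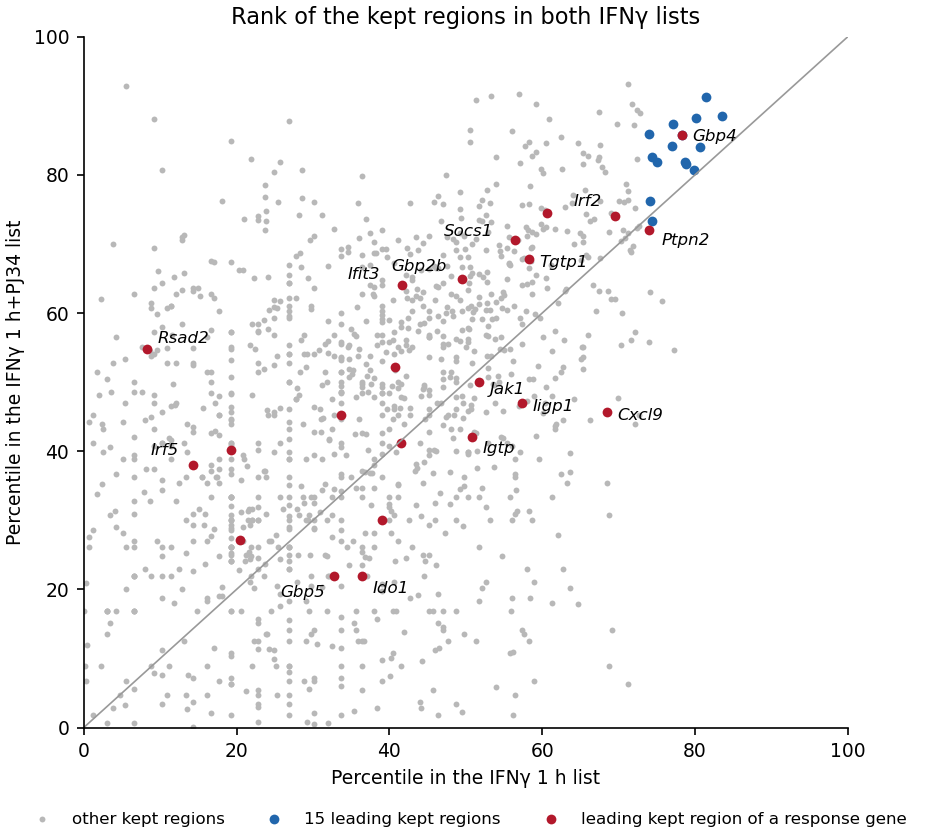
Percentile of each kept region in the IFNγ 1 h list (x axis) and the IFNγ 1 h+PJ34 list (y axis), where 0 is the weakest and 100 the strongest peak of a list, with the 15 leading regions in blue, the leading regions of response genes in red (Gbp4 is both) and the line of equal rank in grey. Of the 1264 points 865 lie above the line, and Cxcl9 lies farther below it than the other labelled genes.

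The 15 leading regions, those with the highest value of the lower percentile, comprised 10 in introns, 5 between genes and none at a promoter. Their fold enrichment was 10.7 to 17.3 in the IFNγ 1 h list and 11.3 to 32.4 in the IFNγ 1 h+PJ34 list, and 14 of 15 ranked higher with PJ34. A GAS match was found in 12 of them and a strict one in 2. The Rapgef6 regions on either side of the gap reached percentile 83.5 and 88.6 (left) and 81.5 and 91.2 (right) in the IFNγ 1 h and IFNγ 1 h+PJ34 lists, and the fold enrichment of the right one was 12.9 and 32.4. A region of 3165 bp in an intron of Ranbp2, a nuclear pore component, had 5 GAS matches and folds of 17.0 and 21.9. The region with its summit 3.64 kb from the start of Tnfrsf1a, which encodes a receptor of tumour necrosis factor, had the highest IFNγ 1 h fold of all kept regions, 17.3, and 28.1 with PJ34. Other leading regions had as nearest gene Stam and Vps53, which act in endosomal sorting and trafficking, Gnaq, a G protein subunit, Cxcr4, the receptor of the chemokine CXCL12, Akap7, an anchor of protein kinase A, Dcun1d1, a factor of cullin neddylation, Srr, serine racemase, the peptide hormone gene Insl5, Tmem131l and Clvs1. The nearest start site could be far, with the summit 253 kb from that of Clvs1 and 68.0 kb from that of Srr, within Smg6. A Control or PJ34 peak was 0.119 kb from the Akap7 region. Only the Gbp4 region among the 15 lay within 50 kb of a gene of the IFNγ response lists.

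Genes of the known IFNγ response were read from 12 fixed lists with 102 genes, of which 100 were in the annotation. A kept region lay within 50 kb of a start site of 32 of these 100 genes (32%, 23.0 to 42.1%), against 7.17% of all 21911 protein-coding genes. The lists were chosen with earlier results of these data known. The 32 genes shared 35 kept regions, since many are neighbours, and the interval treats them as independent. At 10 kb the shares were 14% and 1.75%, and at 100 kb 44% and 12.8%. For regions of the IFNγ alone class the same count was 31 of 100 against 11.9% of all genes, so a high share was not limited to the kept regions. Genes with a kept region on the 3 lists for comparison were 1 of 8 for alternative activation, 3 of 15 for resting macrophage identity and 2 of 20 for ribosomal proteins.

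**Figure D4:**
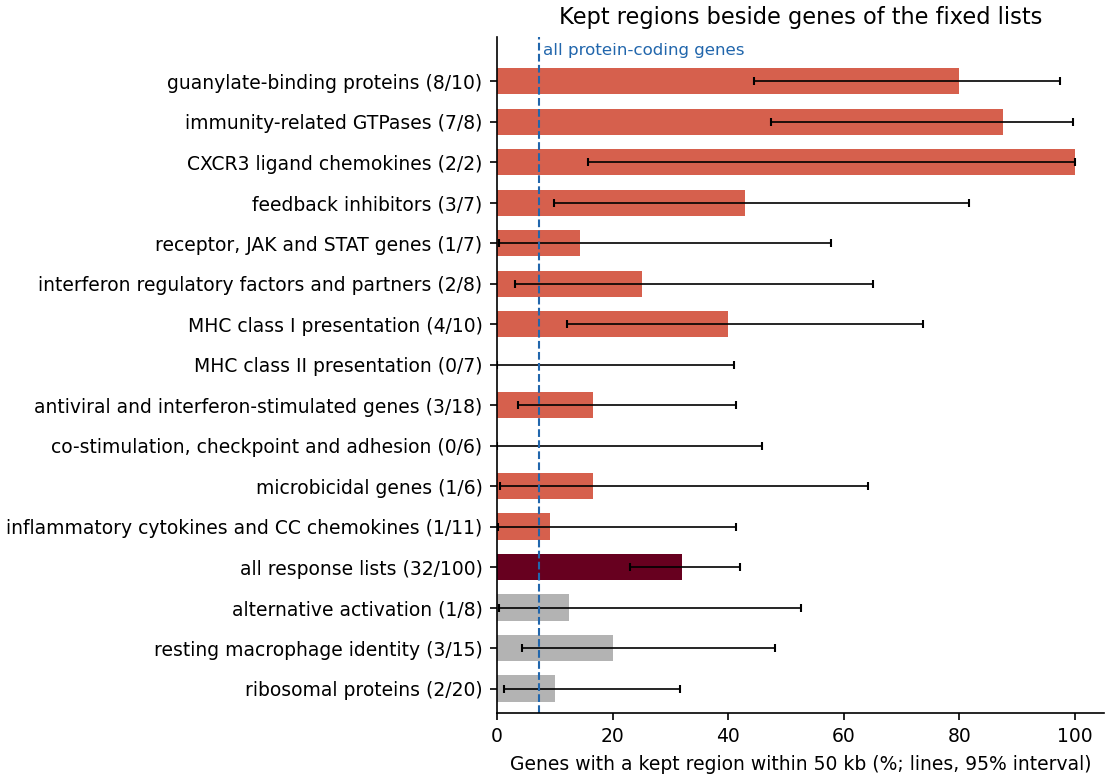
Share of genes (%) with a kept region within 50 kb of a start site, for 12 lists of IFNγ response genes (light red), all of them (dark red) and 3 lists for comparison (grey), with 95% intervals as black lines and the 7.17% of all protein-coding genes as a dashed line. CXCR3 ligand chemokines (2 of 2), guanylate-binding proteins (8 of 10) and immunity-related GTPases (7 of 8) stand high, and MHC class II and co-stimulation genes are at 0. Neighbouring genes of a list can share a kept region.

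The interferon-inducible GTPases, which attack the vacuoles of intracellular pathogens, were the lists with the most kept regions. Of the guanylate-binding protein genes 8 of 10 had a kept region, and 0 of 10 had a region of any of the 3 comparison classes. A region whose edge lay 4.82 kb from a start site of Gbp4, and which was also the leading region of Gbp8 and Gbp9, ranked at percentile 78.2 with IFNγ and 85.8 with IFNγ and PJ34, at folds of 14.6 and 19.9, and held 4 GAS and 3 ISRE matches. A region within 50 kb of Gbp2, Gbp2b, Gbp3 and Gbp7 lay at percentile 49.5 and 64.9 and at folds of 4.74 and 9.85. The leading region of Gbp5 lay at percentile 32.8 and 21.9 and at folds of 3.52 and 4.08, and a Control or PJ34 peak was 0.339 kb away. Gbp6 and Gbp10 had none. Of the immunity-related GTPase genes 7 of 8 had a kept region, and Irgm1 had none. The Igtp and Irgm2 region, with its strict GAS, lay at percentile 50.8 and 42.1 and at folds of 5.29 and 5.59. The leading Tgtp1 region, also with a strict GAS, lay at percentile 58.3 and 67.8 and at folds of 7.37 and 12.0. The promoter region of Iigp1, with its summit 0.47 kb from the start, lay at percentile 57.4 and 47.0 and at folds of 7.09 and 6.39. The rank differed either way, being higher with PJ34 in 5 of 9 regions of the guanylate-binding proteins and in 3 of 7 of the other GTPases.

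Feedback inhibitors of the pathway had a kept region at 3 of 7 genes. The leading Socs1 region, a 3000 bp stretch with its edge 27.8 kb from this inhibitor of JAK kinases and with 2 GAS matches, 1 of them strict, lay at percentile 56.4 and 70.6 and at folds of 6.95 and 13.2. Its nearest start site is that of Gm11172. Ptpn2, a phosphatase that acts on JAK kinases, had an intronic region at percentile 74.0 and 72.0 and folds of 12.1 and 13.6. Socs3, a related inhibitor, had a region 48.3 kb away, within Pgs1, at percentile 19.2 and 40.2. Jak1, a kinase of the pathway, had its leading kept region at percentile 51.8 and 50.1. The edge of this region lay 33.35 kb from the start, and a Control or PJ34 peak was 0.146 kb away.

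Of the chemokines that attract T cells through CXCR3, Cxcl9 and Cxcl10 shared 2 kept regions. The Cxcl9 promoter region, with its summit 0.56 kb from the start, had a lower rank with PJ34, percentile 68.5 against 45.7, and its fold was 10.3 against 3.84. For Rsad2, an antiviral enzyme gene, the order was the opposite, with percentile 8.27 and 54.8 and folds of 2.51 and 6.87. The edge of its region lay 17.0 kb from the start, and a Control or PJ34 peak was 0.156 kb away. Ifit3, a further antiviral gene, had a region over an exon at percentile 41.7 and 64.1. These were 3 of 18 antiviral genes together with Ifit2, which shares that region.

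Of the interferon regulatory factor genes 2 of 8 had a kept region. Irf2 had one with its edge 6.27 kb from the start, with folds of 10.7 and 15.1, and Irf5 one over an exon, with folds of 3.29 and 4.68. A Control or PJ34 peak was 0.182 kb from the Irf5 region. MHC class I genes counted 4 of 10, namely Tapbp and H2-K1, which share a region at percentile 60.6 and 74.5, H2-D1 at 33.7 and 45.2, and Nlrc5, the transactivator of class I genes, at 40.8 and 52.1. None of 7 MHC class II genes (0 to 41.0%) and none of 6 co-stimulation, checkpoint and adhesion genes (0 to 45.9%) had a kept region. Ido1, which degrades tryptophan, was 1 of 6 microbicidal genes, with folds of 4.56 and 4.08, and Il1b was 1 of 11 inflammatory cytokine and CC chemokine genes, against 6 of 11 for regions of the IFNγ alone class. The IFNγ alone class also counted more genes than the kept regions among interferon regulatory factor genes (5 of 8), MHC class I genes (6 of 10), MHC class II genes (2 of 7), co-stimulation genes (2 of 6) and microbicidal genes (2 of 6), and as many among CXCR3 ligands (2 of 2). The small lists leave wide intervals, and no difference between lists was tested.

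Chained at up to 25 kb the kept regions formed 1073 clusters, of which 918 were single regions. In clusters of 2 or more lay 346 regions (27.4%), against 32.04%, 32.06% and 37.0% in the 3 classes, and 84 regions (6.65%, 5.34 to 8.16%) lay in the 24 clusters of 3 or more. This share differed by −5.93 points from that of the IFNγ alone class (−7.83 to −3.94), by −4.22 points from that of the IFNγ and PJ34 class (−6.31 to −2.11) and by −8.19 points from that of the Control and PJ34 class (−10.2 to −6.12). All 3 classes have more regions to chain than the kept set. Of the 2 clusters of 5 regions, the one with the larger summed region width extended over 22.5 kb and spanned Serpina3f and Serpina3g, which encode serine protease inhibitors. It included both promoters, and the region with its summit 10.1 kb from the start of Serpina3f ranked at percentile 69.8 and 87.3, with folds of 8.90 and 19.8. The widest of the 5, a region of 4023 bp, held 4 GAS matches, 1 of them strict. The other cluster comprised 5 intergenic regions over 23.5 kb whose nearest gene is Chl1, at least 143.0 kb away. Next came 4 regions over 9.72 kb at Gbp4, Gbp8 and Gbp9, 4 over 17.6 kb at Csf2rb2 and Csf2rb, receptor subunits for the cytokines of the GM-CSF and IL-3 group, and 4 over 35.3 kb with Ch25h as nearest gene, which encodes cholesterol 25-hydroxylase. The summits of these last 4 regions lay at least 54.9 kb from the start of Ch25h. The strongest of them, 88.9 kb away, reached percentile 67.5 with IFNγ and 89.1 with IFNγ and PJ34, with folds of 9.83 and 26.3.

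**Figure D5:**
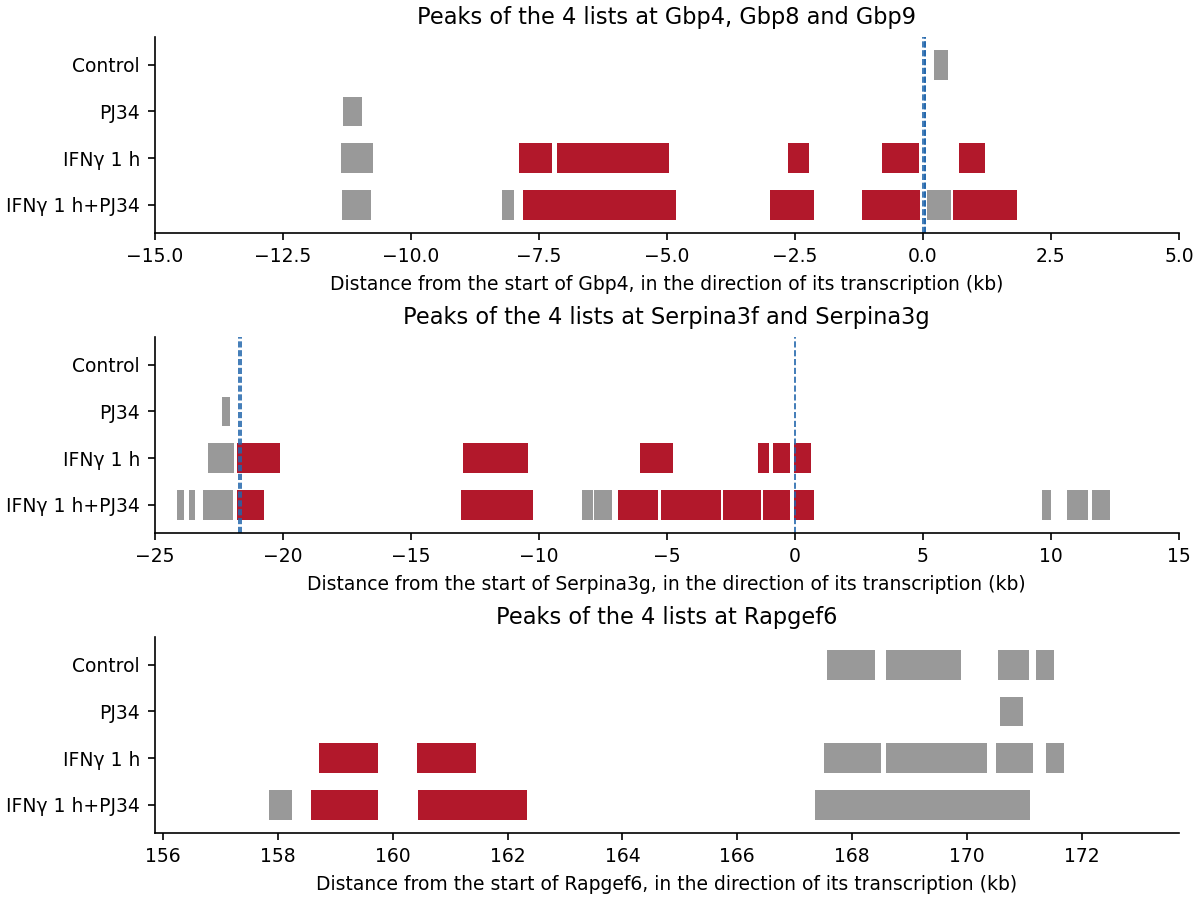
Peaks of the 4 lists, 1 row for each list, at 3 loci, by distance in kb from the start of Gbp4, Serpina3g or Rapgef6 in the direction of transcription, with peaks of kept regions in red, other peaks in grey and protein-coding start sites as dashed lines. At Gbp4, 5 IFNγ 1 h and 4 IFNγ 1 h+PJ34 peaks fall in kept regions, and 1 Control and 1 PJ34 peak lie beside them. The gap between the 2 red blocks at Rapgef6 holds 21 GAS matches of the tandem array, which runs on into both blocks.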

How the data were processed

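H3K27ac ChIP-seq peaks of 4 conditions were used. The authors aligned reads to mm10 with Bowtie, kept uniquely mappable reads with Samtools and Picard, called relaxed peaks for each replicate against input with MACS at p 0.01, and deposited for each condition the peaks found in both replicates. For each peak the authors deposited a score, whose scaling is not stated and which was not used here, a fold enrichment over background, −log10 p and −log10 q values, and a summit offset. The unit of analysis was the merged region. The percentile of a region in a list is the rank of its best −log10 p there, which is insensitive to scaling but not to sequencing depth, which is unknown. A promoter region had its summit within 1 kb of a protein-coding start site of GENCODE M21, mitochondrial genes excluded, and 100 of 102 response genes were matched (Gbp11 and Cxcl11 were not).

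Letters were searched on both strands. Shares have exact binomial (Clopper-Pearson) intervals, differences of shares Newcombe intervals and ratios of densities exact conditional Poisson intervals, all at 95%. Named were the 15 regions with the highest lower percentile, the leading region of each response gene and the 5 clusters with the most members, and sequences of the first 10 of these with a GAS match were printed. The members, gene lists and tests were chosen with earlier results of these data known. Scripts, in Python 3.11.15 with NumPy 2.4.6, SciPy 1.17.1, pandas 2.3.3, pysam 0.24.0, samtools 1.23.1 and matplotlib 3.10.9, were tested on simulated data. Alternatives varied the peaks that enter, the merging, the distances, the rank range and the bases searched.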

Additional observations from a re-analysis of the deposited data

How the results depend on the processing

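Of 250 values of 27 results under other settings, 224 were counted as unchanged. For ratios and differences this means the same direction and an interval that still included, or still excluded, no difference. For the number of kept regions, the median percentile difference and the share of response genes it means a value close to the main one. Of the rest, 6 reversed, 14 gained an interval that included no difference, and 6 moved. No paired analysis was possible because the replicates of a condition share 1 list, so none of them could be left out either. Read depth is unknown, so that a missing peak does not show missing acetylation. Where a value changed, the cause was not tested.

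The promoter share against the IFNγ alone class (1.23 points) was 0.52 with q under 0.01, −1.47 with only the stronger 50% of peaks, 1.05 with lists of equal size, 1.06 on autosomes, 1.10 with peaks up to 1 kb apart merged, 1.20 at percentiles 25 to 75, −0.56 at a promoter distance of 2.5 kb and 1.14 with regions over 1 kb from a Control or PJ34 region. At 2.5 kb it was −1.93 against the IFNγ and PJ34 class. With the stronger 50% of peaks, 811 regions were kept, the median percentile difference was 6.70, 22% of response genes had a kept region, the spacing differences were 1.58 (IFNγ alone class) and −1.41 points (IFNγ and PJ34 class), the strict GAS ratio to the IFNγ alone class was 1.37, and the AP-1 ratio to the Control and PJ34 class was 0.99. With peaks up to 1 kb apart merged, the median percentile difference was 11.0, the spacing difference to the IFNγ alone class 2.98 points and that AP-1 ratio 0.98. Response genes with a kept region were 14% at 10 kb and 44% at 100 kb. Within 100 bp of the summit the GAS ratios were 1.15 (IFNγ alone class) and 1.09 (IFNγ and PJ34 class) and the strict ones 2.45, 1.62 and 2.77 in the order of the report.

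Ratios 200 to 400 bp from the summit, and their alternatives, were chosen after seeing the data, as were the omission of soft-masked bases, of the Rapgef6 regions and of regions near a Control or PJ34 region, and the window of 400 bp. Over 9 alternatives the GAS ratios were 1.82 to 2.36, 2.45 to 2.84 and 4.40 to 5.84, and the strict ones 1.98 to 4.52, 4.09 to 9.22 and 12.6 to 19.8.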
